A study of Homo sapiens with 6 samples.

Results

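The transcripts of 42 lysosomal genes were examined in A549-TIPARP cells and A549-GFP cells, with 3 RNA-seq libraries of each line. The genes were picked by symbol from the 53826 entries of the deposited tables, as a fixed list of lysosomal hydrolases, cathepsins, membrane proteins and the receptors that sort them, together with the transcription factor TFEB and the progranulin gene GRN, and all 42 were found. Each had a level above 2 TPM in at least 1 library, so all 42 were among the 13181 genes analysed. A549 is a cell line from a human lung adenocarcinoma. A549-TIPARP cells carry TIPARP, an enzyme that attaches single ADP-ribose units to proteins, on a pMXs retroviral vector, and A549-GFP cells carry GFP on the same vector. Both are labelled as stable overexpression, and neither whether they are clones nor a time after transduction is stated for the RNA. TPM, the unit of the tables, corrects for both transcript length and library size, so that levels of different genes can be compared. Read numbers are lost in it, and the depth of the libraries is unknown.

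The lysosome is an acidic compartment in which proteins, glycans and lipids delivered by endocytosis and autophagy are broken down. Most of its soluble enzymes are made in the endoplasmic reticulum, tagged with mannose 6-phosphate in the Golgi and carried onward by the mannose 6-phosphate receptors. Many of the genes are known targets of the transcription factor TFEB, which enters the nucleus when lysosomes are stressed or mTORC1 is inactive, and which binds an E-box within a longer element called CLEAR. Inherited loss of many of these enzymes causes lysosomal storage diseases.

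The E-box core of that element was looked for before the start of each gene. Promoter windows from RefSeq (GRCh38.p14) were found for 32 of the 42 genes, and the 250 bases before the start were searched on both strands for TCACGTG, which reads CACGTGA from the other strand. A palindromic match on both strands was counted as 1 site. The start is that of a RefSeq transcript, so a window can lie inside the longest span of its gene in GENCODE 44, as it does for CTSC, CTSL, CTSD and NPC2. For genes with several windows, the one with the most sites was taken. At least 1 site was held by 11 of the 32 genes (34.4%), against 6.63% of the 10344 analysed genes with a window and 3.31% of all 35116 windows. LAMP1, which encodes a main glycoprotein of the lysosomal membrane, had 5 sites. IGF2R had 3, CTSA, GAA, GALNS and MCOLN1 had 2 each, and ARSB, CLN3, CTSD, M6PR and NEU1 had 1. A match describes the letters of the window and not a bound site. Since many of the 42 genes are known TFEB targets, a larger share than over all genes is no finding about these cells. No window was found for ARSA, ASAH1, CTSB, HEXA, LAMP2, LGMN, MANBA, NAGLU, PSAP or SGSH. The windows of 4 genes with the core are shown because they span its range from 1 to 5 sites, written 5′ to 3′ on the strand of the gene with the core in capitals:
LAMP1, chr13:113296989-113297238, plus strand: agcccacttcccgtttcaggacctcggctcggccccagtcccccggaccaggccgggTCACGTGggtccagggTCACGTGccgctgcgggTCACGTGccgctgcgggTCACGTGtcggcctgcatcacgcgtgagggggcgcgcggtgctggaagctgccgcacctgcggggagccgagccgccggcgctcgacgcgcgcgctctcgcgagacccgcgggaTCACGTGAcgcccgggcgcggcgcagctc
GAA, chr17:80101331-80101580, plus strand: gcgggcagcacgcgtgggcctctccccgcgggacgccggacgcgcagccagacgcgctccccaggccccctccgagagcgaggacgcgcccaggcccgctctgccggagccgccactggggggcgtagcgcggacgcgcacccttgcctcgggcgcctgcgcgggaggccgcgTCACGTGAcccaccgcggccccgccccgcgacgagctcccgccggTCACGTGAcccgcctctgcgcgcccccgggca
MCOLN1, chr19:7522374-7522623, plus strand: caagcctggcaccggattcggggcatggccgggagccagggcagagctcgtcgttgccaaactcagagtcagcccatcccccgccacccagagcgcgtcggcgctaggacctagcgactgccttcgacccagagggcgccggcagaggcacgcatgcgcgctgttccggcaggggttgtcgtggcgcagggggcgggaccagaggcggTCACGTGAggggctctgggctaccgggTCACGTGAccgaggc
CTSD, chr11:1763928-1764177, minus strand: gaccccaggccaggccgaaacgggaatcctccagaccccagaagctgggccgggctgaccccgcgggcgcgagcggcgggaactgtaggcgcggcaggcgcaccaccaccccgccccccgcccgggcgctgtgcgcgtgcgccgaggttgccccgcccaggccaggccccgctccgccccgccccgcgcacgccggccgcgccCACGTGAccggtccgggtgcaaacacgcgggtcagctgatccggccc

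**Figure D1:**
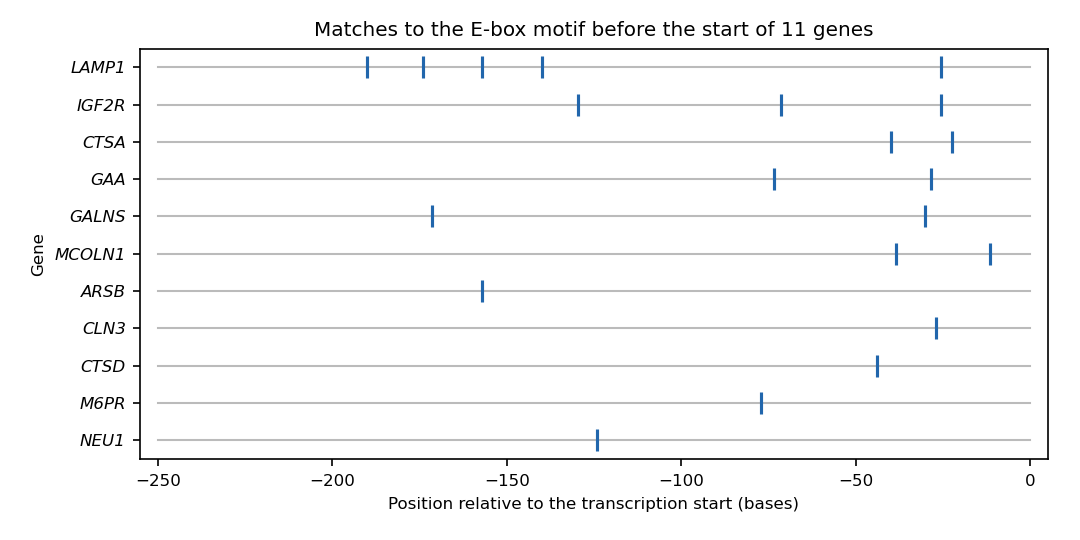
Positions of the TCACGTG core, on either strand, in the 250 bases before the transcription start of the 11 lysosomal genes that held it. Each grey line is the searched window, the horizontal axis is the distance from the start in bases and each tick is 1 site; LAMP1 has 5 ticks and IGF2R 3.

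The windows of CTSL, CTSC and NPC2 are shown because these were the only lysosomal genes whose levels did not overlap between the lines. None of the 3 held the core:
CTSL, chr9:87725869-87726118, plus strand: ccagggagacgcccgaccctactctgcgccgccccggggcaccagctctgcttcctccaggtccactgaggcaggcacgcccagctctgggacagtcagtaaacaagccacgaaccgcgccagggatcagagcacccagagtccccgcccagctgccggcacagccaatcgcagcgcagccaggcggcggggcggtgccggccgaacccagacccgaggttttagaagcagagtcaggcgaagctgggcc
CTSC, chr11:88337737-88337986, minus strand: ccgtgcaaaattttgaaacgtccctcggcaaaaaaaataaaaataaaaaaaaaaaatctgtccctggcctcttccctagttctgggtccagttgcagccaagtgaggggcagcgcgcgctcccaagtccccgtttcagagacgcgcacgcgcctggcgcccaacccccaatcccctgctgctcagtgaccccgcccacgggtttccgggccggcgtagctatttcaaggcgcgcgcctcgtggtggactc
NPC2, chr14:74493306-74493555, minus strand: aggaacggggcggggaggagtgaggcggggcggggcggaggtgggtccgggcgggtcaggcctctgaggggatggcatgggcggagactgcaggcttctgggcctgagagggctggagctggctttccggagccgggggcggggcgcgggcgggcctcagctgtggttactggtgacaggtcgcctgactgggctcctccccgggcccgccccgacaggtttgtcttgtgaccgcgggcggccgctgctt

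TIPARP, the check of the labels, had from 3.68 to 11.4 TPM in A549-GFP cells and from 90.5 to 131 TPM in A549-TIPARP cells (log2 fold change 3.90, limma adjusted p = 0.0125). Over the alternatives the log2 fold change lay between 3.54 and 4.24 and the limma adjusted p between 0.00989 and 0.616, with 0.513 under a replicate block. A549-GFP replicate 2 stood apart from the other libraries. Measured from the mean of its line, its root mean square deviation was 0.536 on the log2(TPM + 1) scale, against 0.152 to 0.341 for the other 5 libraries, and it held the highest of the 6 values for 52.0% of the analysed genes. The summed TPM of 8 epithelial markers was 10783 in that library and from 18566 to 23401 in the others. That lower sum came from KRT8 (3855 TPM there, 6959 to 9287 TPM elsewhere) and KRT18 (4176 TPM there, 9272 to 11880 TPM elsewhere). KRT19 was also lowest there, at 2.54 TPM, against 4.575 and 5.36 TPM in the other A549-GFP libraries and 10.87 to 19.25 TPM in A549-TIPARP. KRT7 (2433 TPM) and CDH1 (141.6 TPM) had their highest values in that library, and EPCAM, CLDN4 and MUC1 had neither extreme there. The median excess of that library over the other A549-GFP libraries was -0.03 on the log2 scale for the 8 markers. All 6 endothelial markers and 4 of 6 fibroblast markers were at the floor of 1 TPM in every library. Of 8 leukocyte markers 6 were at the floor in every library, PTPRC, CD163, CSF1R and TYROBP among them, while CD14 reached 4.98 TPM in A549-GFP replicate 2 and 5.63 TPM in A549-TIPARP replicate 3, and LYZ had 3.73, 5.95 and 3.14 TPM in A549-GFP replicates 1 to 3 and 7.26, 4.50 and 6.88 TPM in A549-TIPARP. The sum of the 8, with floor values counted as 1, ran from 10.6 to 16.9 in A549-GFP and from 12.7 to 18.5 in A549-TIPARP. Values below are from all 6 libraries unless A549-GFP replicate 2 is said to be left out.

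No lysosomal gene passed the test for a difference between the lines. Differences are those of the mean log2 values, A549-TIPARP minus A549-GFP. The mean was higher in A549-TIPARP cells for 24 of the 42 genes, where it was for 40.1% of all genes, and lower for 18, and the median log2 fold change was 0.04, against -0.07 over all analysed genes. That median was between -0.11 when A549-GFP replicate 3 was left out and 0.26 when A549-GFP replicate 2 was. No lysosomal gene had an adjusted p-value under 0.05 by limma on log2(TPM + 1). Of all 13181 genes, 1 higher gene, TIPARP itself, and 1 lower gene had one, each 0.00759%. The adjusted p-values of the 42 genes lay between 0.994 and 0.9995. Before adjustment, p-values under 0.05 were found for 0 higher genes, against 2.97% of all genes, and for 2 lower genes, CTSL and CTSC, against 0.880% of all genes. More than 1.5-fold higher was 1 gene, CTSH, against 5.70% of all genes, and more than 1.5-fold lower was 1 gene, CTSL, against 3.02%. The lines did not overlap, with A549-TIPARP above, for NPC2 alone, where 5.36% of all genes did so, and with A549-TIPARP below for CTSL and CTSC, where 3.54% did so. The 2 lower genes before adjustment became 1 when A549-GFP replicate 1 was left out, and 0 when A549-GFP replicate 2 or any of the A549-TIPARP libraries was. The samples carry experiment numbers, but nothing says that the libraries came from separate cultures, so the p-values measure the spread between these libraries, which may be technical.

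**Figure D2:**
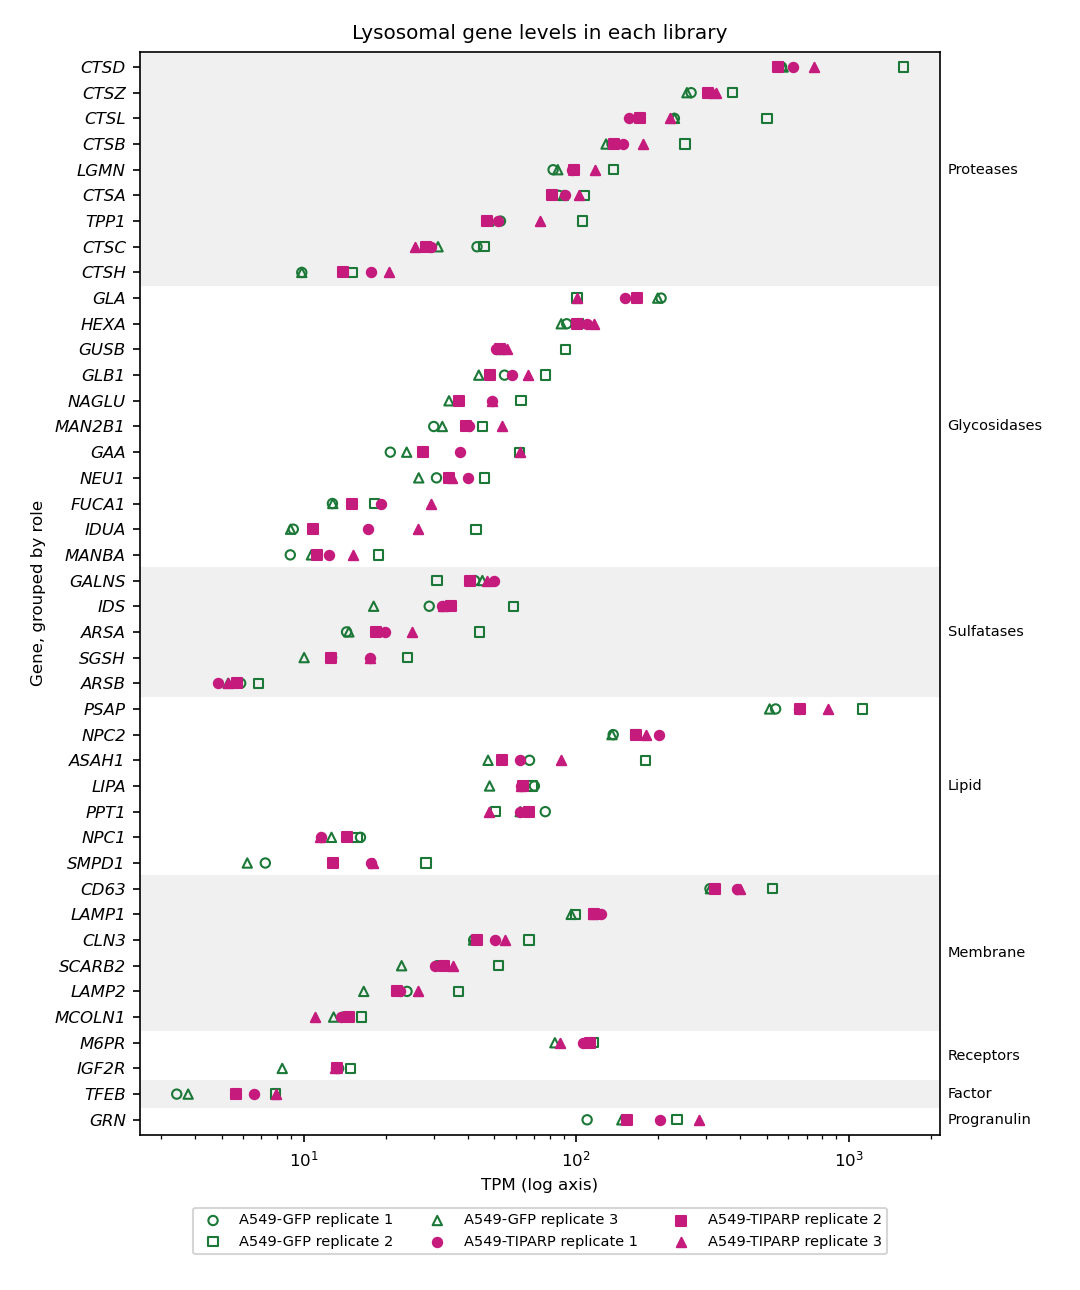
Levels of the 42 lysosomal genes in TPM (logarithmic horizontal axis), with 1 point per library and genes grouped by role. Open green symbols are A549-GFP and filled magenta symbols A549-TIPARP. The open square of A549-GFP replicate 2 is the rightmost symbol for 29 of the 42 genes, where that library was highest for 52.0% of all genes.

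The precision of these comparisons was limited. The median standard error of the 42 log2 fold changes was 0.25, and the median half-width of the 95% interval was 0.56. For 9 genes the 95% interval of the difference lay inside 1.5-fold in both directions, namely CTSA, CTSZ, GLB1, HEXA, LIPA, LAMP1, CD63, CLN3 and M6PR. For CD63, a tetraspanin of late endosomes and exosomes, the interval ran from -0.53 to 0.52. For the other 33 genes a 1.5-fold difference in at least 1 direction lay within the interval.

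Among the 9 lysosomal proteases, which cleave proteins delivered to the lysosome, the mean in A549-TIPARP cells was higher for 3 and lower for 6, with a median log2 fold change of -0.09. Without A549-GFP replicate 2 the mean was higher for 7 of the 9 (56.9% of all genes), and the median was 0.17, against 0.05 over all genes. CTSL, a cysteine endopeptidase (chromosome 9, 87724051 to 87731469, plus strand, hg38), stood at 229, 500 and 229 TPM in A549-GFP cells (replicates 1, 2 and 3 in that order, as in all sentences below) and at 156, 171 and 221 TPM in A549-TIPARP cells. The lines did not overlap, but A549-TIPARP replicate 3 came close to A549-GFP replicates 1 and 3, and A549-GFP replicate 2 stood far above the rest. Its log2 fold change of -0.71 had a standard error of 0.31, a 95% interval from -1.42 to -0.01 and a limma adjusted p of 0.994. Without A549-GFP replicate 2 it was -0.34 (standard error 0.17, limma adjusted p = 0.558).

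CTSC, a dipeptidyl peptidase that activates serine proteases of granules (chromosome 11, 88265069 to 88359684, minus strand), had 43.2, 45.9 and 31.1 TPM in A549-GFP and 29.4, 28.2 and 25.7 TPM in A549-TIPARP. All 3 A549-TIPARP values were below the lowest A549-GFP value, that of replicate 3. A log2 fold change of -0.50 was found (standard error 0.21, 95% interval from -0.97 to -0.03, limma adjusted p = 0.994), and one of -0.39 (limma adjusted p = 0.511) without A549-GFP replicate 2.

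CTSH, an aminopeptidase of the same cysteine protease family (chromosome 15, 78921058 to 78949574, minus strand), pointed the other way. Its levels were 9.84, 15.1 and 9.84 TPM in A549-GFP and 17.7, 14.0 and 20.5 TPM in A549-TIPARP. The lines overlapped because A549-GFP replicate 2 lay above A549-TIPARP replicate 2. The log2 fold change of 0.56 (standard error 0.25) had a 95% interval from -0.01 to 1.12 and a limma adjusted p of 0.994, and without A549-GFP replicate 2 it was 0.75 (standard error 0.19, limma adjusted p = 0.303).

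CTSD, the main aspartic protease of lysosomes, was the most abundant of the 42 transcripts by geometric mean. It had 566, 1583 and 574 TPM in A549-GFP and 624, 550 and 745 TPM in A549-TIPARP. A549-GFP replicate 2 was 2.78-fold above the mean of the other A549-GFP libraries, while the remaining 5 values lay close together. The log2 fold change of CTSD was -0.34, with values from -0.58 to 0.15 when 1 library was left out, the highest without A549-GFP replicate 2. CTSZ, a carboxypeptidase, had 264, 375 and 255 TPM in A549-GFP and 308, 305 and 324 TPM in A549-TIPARP. For CTSZ too A549-GFP replicate 2 was the highest library, and the log2 fold change was 0.09, with values from -0.009 to 0.27 when 1 library was left out. CTSB, LGMN, CTSA and TPP1 had log2 fold changes from -0.19 for TPP1 to 0.07 for LGMN.

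Among the 11 glycosidases, which remove sugars from glycoproteins, glycolipids and glycosaminoglycans, the mean was higher in A549-TIPARP cells for 9, with a median log2 fold change of 0.12, and the exceptions were GLA and GUSB. Leaving out A549-GFP replicate 2 made the mean higher for 10 of the 11 (56.9% of all genes), with a median of 0.35, against 0.05 over all genes. FUCA1, the lysosomal alpha-L-fucosidase (chromosome 1, 23845077 to 23868290, minus strand), had 12.8, 18.2 and 12.8 TPM in A549-GFP and 19.3, 15.04 and 29.2 TPM in A549-TIPARP. The lines overlapped in A549-GFP replicate 2 and A549-TIPARP replicate 2, and the log2 fold change was 0.48 (standard error 0.28, 95% interval from -0.16 to 1.11, limma adjusted p = 0.994), or 0.23 without A549-TIPARP replicate 3. GAA, the acid alpha-glucosidase that degrades glycogen, had 20.8, 61.8 and 23.9 TPM in A549-GFP and 37.5, 27.3 and 62.4 TPM in A549-TIPARP. A549-GFP replicate 2 and A549-TIPARP replicate 3 were nearly equal and above the other 4 libraries. The log2 fold change of GAA was 0.34, and it was 0.82 when A549-GFP replicate 2 and 0.03 when A549-TIPARP replicate 3 was left out. IDUA, which cleaves iduronic acid from heparan and dermatan sulfate, was also highest in these libraries, with 9.16, 42.9 and 8.95 TPM in A549-GFP and 17.3, 10.8 and 26.2 TPM in A549-TIPARP. The log2 fold change of IDUA was 0.13 with a 95% interval from -1.17 to 1.43, and values from -0.23 to 0.84 when 1 library was left out.

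GLA, the alpha-galactosidase that clears globotriaosylceramide, mirrored this pattern. It had 205, 100.5 and 199 TPM in A549-GFP and 151, 167 and 100.6 TPM in A549-TIPARP. A549-GFP replicate 2 and A549-TIPARP replicate 3 were the lowest libraries and were nearly equal. GLA was the only one of the 42 genes that was more than 2-fold lower in A549-GFP replicate 2 than in the other A549-GFP libraries. Its log2 fold change was -0.23 with all libraries and -0.56 (standard error 0.23, limma adjusted p = 0.480) without that library, and it was near 0, at -0.01, when A549-TIPARP replicate 3 was left out. HEXA, GLB1, NEU1, MAN2B1, MANBA and NAGLU had log2 fold changes from 0.01 for GLB1 to 0.31 for MAN2B1, and GUSB had -0.25.

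Sulfatases remove sulfate groups from glycosaminoglycans and sulfatides. Of the 5, GALNS, IDS and SGSH had higher and ARSA and ARSB lower means, with log2 fold changes from -0.15 for ARSB to 0.23 for GALNS, which were -0.07 and 0.06 when A549-GFP replicate 2 was left out. ARSA, which degrades sulfatide, had 14.4, 44.1 and 14.7 TPM in A549-GFP and 19.8, 18.5 and 25.1 TPM in A549-TIPARP. Without A549-GFP replicate 2, all A549-TIPARP values of ARSA lay above both A549-GFP values, and the log2 fold change went from -0.01 to 0.50 (standard error 0.17, limma adjusted p = 0.421). It was -0.28 when A549-GFP replicate 1 was left out instead. GALNS had its lowest value, 30.8 TPM, in A549-GFP replicate 2, the other 5 libraries lying between 40.9 and 50.1 TPM.

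Of the 7 genes for lipid breakdown and lipid export, the mean in A549-TIPARP cells was higher for 4. NPC2, the soluble protein that hands cholesterol to NPC1 (chromosome 14, 74476192 to 74494177, minus strand), had 136.6, 164.9 and 135.2 TPM in A549-GFP and 201.2, 165.1 and 180.7 TPM in A549-TIPARP. The lines did not overlap, but A549-GFP replicate 2 and A549-TIPARP replicate 2 were almost equal. The difference on the log2 scale was 0.32 (standard error 0.17, 95% interval from -0.05 to 0.70, limma adjusted p = 0.994) and 0.42 without A549-GFP replicate 2 (limma adjusted p = 0.355). NPC1, the membrane transporter of the pair, had a log2 fold change of -0.23 (95% interval from -0.71 to 0.24). SMPD1, the acid sphingomyelinase (chromosome 11, 6390440 to 6394998, plus strand), had 7.23, 28.1 and 6.21 TPM in A549-GFP and 17.7, 12.8 and 18.0 TPM in A549-TIPARP. A549-GFP replicate 2 was the highest and the other A549-GFP libraries were the lowest of the 6. The log2 fold change of 0.50 (standard error 0.49, 95% interval from -0.61 to 1.61, limma adjusted p = 0.994) became 1.14 (standard error 0.20, limma adjusted p = 0.225) once that library was left out, the smallest p-value of the 42 genes in that fit, and 0.13 when A549-GFP replicate 3 was left out instead.

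PSAP, the precursor of the saposins that present sphingolipids to their hydrolases, came second in level. It had 539, 1122 and 512 TPM in A549-GFP and 658, 664 and 839 TPM in A549-TIPARP. ASAH1, the acid ceramidase, had 67.4, 179.6 and 47.5 TPM in A549-GFP and 62.1, 53.4 and 88.2 TPM in A549-TIPARP, so that only A549-GFP replicate 2 stood clear of the rest. LIPA, the lysosomal acid lipase, had a log2 fold change of 0.03 and PPT1, which removes palmitate from proteins, one of -0.09.

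The 6 membrane proteins had log2 fold changes from -0.13 for MCOLN1 to 0.19 for LAMP1. LAMP1, the gene with the most E-box cores, had 116.1, 99.2 and 95.8 TPM in A549-GFP and 123.2, 116.4 and 114.8 TPM in A549-TIPARP, a log2 fold change of 0.19 with a 95% interval from -0.17 to 0.55. A549-GFP replicate 2 was not raised for LAMP1, while LAMP2, the other main membrane glycoprotein, had 23.9, 37.0 and 16.6 TPM in A549-GFP and from 22.0 to 26.2 TPM in A549-TIPARP. CD63 had 309, 524 and 311 TPM in A549-GFP and 389, 322 and 398 TPM in A549-TIPARP. SCARB2, the receptor that carries glucocerebrosidase, MCOLN1, a calcium channel, and CLN3 had log2 fold changes of -0.02, -0.13 and 0.00.

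The mannose 6-phosphate receptors carry the tagged enzymes from the Golgi. M6PR had 112, 116 and 83.5 TPM in A549-GFP and 106, 112 and 87.3 TPM in A549-TIPARP, a log2 fold change of -0.02 (standard error 0.19, 95% interval from -0.46 to 0.42, limma adjusted p = 0.998). IGF2R had 13.4, 14.9 and 8.35 TPM in A549-GFP and from 13.1 to 13.3 TPM in A549-TIPARP, a log2 fold change of 0.14 (standard error 0.25, 95% interval from -0.43 to 0.70, limma adjusted p = 0.994). For both receptors A549-GFP replicate 3 was the lowest library.

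TFEB had the lowest level of the 42 transcripts by geometric mean. It had 3.42, 7.91 and 3.77 TPM in A549-GFP and 6.57, 5.65 and 7.91 TPM in A549-TIPARP. A549-GFP replicate 2 and A549-TIPARP replicate 3 were level, and the other A549-GFP libraries were the lowest. On the log2(TPM + 1) scale the difference was 0.42 (standard error 0.31, 95% interval from -0.28 to 1.11, limma adjusted p = 0.994), and 0.74 (standard error 0.18, limma adjusted p = 0.271) once A549-GFP replicate 2 was left out, or 0.23 once A549-GFP replicate 1 was. GRN encodes progranulin, a secreted and lysosomal protein that is cut into granulins. Its levels were 110, 234 and 147 TPM in A549-GFP and 203, 154 and 281 TPM in A549-TIPARP, and the log2 fold change was 0.40 (95% interval from -0.31 to 1.11), with 0.70 when A549-GFP replicate 2 and 0.15 when A549-GFP replicate 1 was left out.

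**Figure D3:**
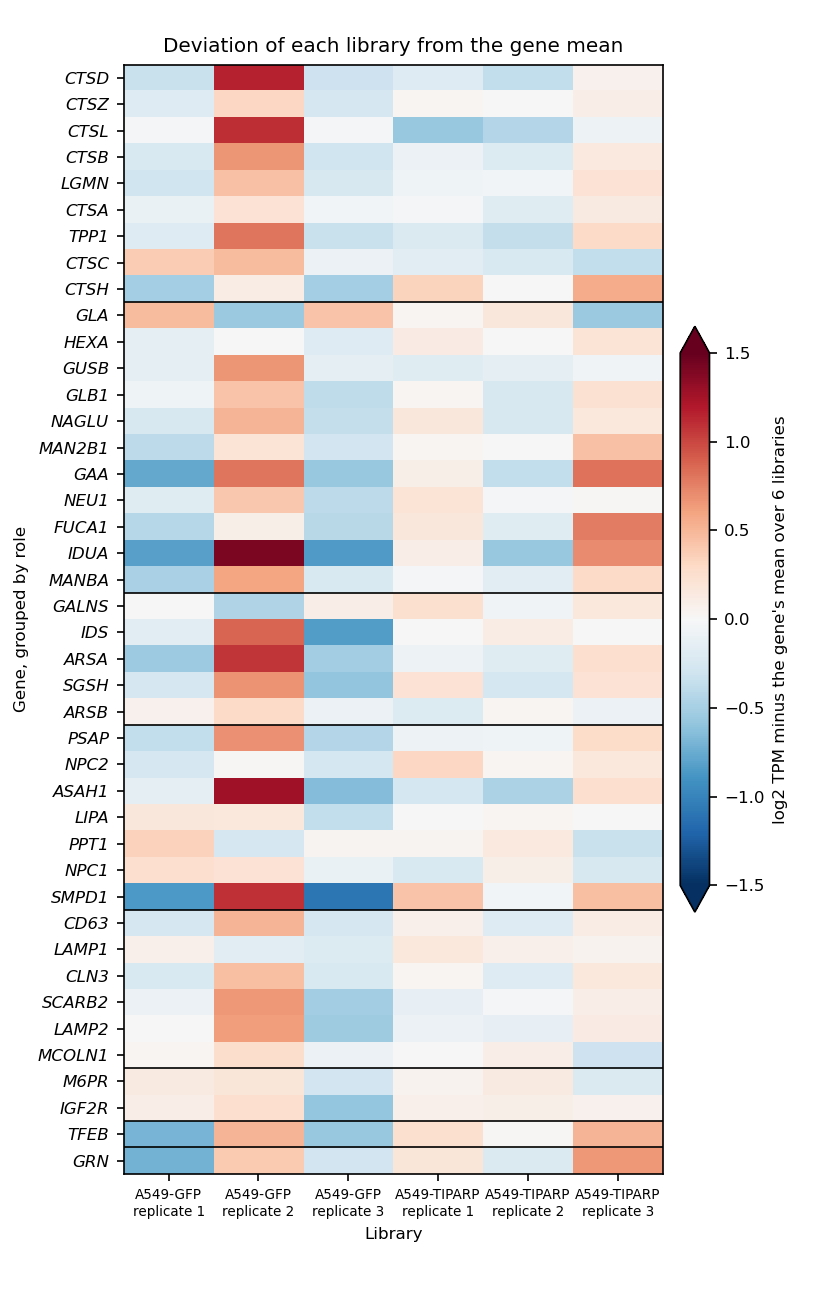
Deviation of each library from the mean of the gene over the 6 libraries (colour, log2 TPM units) for the 42 lysosomal genes, grouped by role. The column of A549-GFP replicate 2 is red for most genes and A549-TIPARP replicate 3 more weakly so, while GLA is blue in both.

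The largest contrast in these genes lay within the A549-GFP line. Summed over the 42 genes, the level was 6748 TPM in A549-GFP replicate 2, 3814 and 3643 TPM in the other A549-GFP libraries, and 4266, 3964 and 4819 TPM in the A549-TIPARP libraries. A549-GFP replicate 2 held the highest of the 6 values for 29 of the 42 genes, where it did so for 52.0% of all genes. It was more than 2-fold above the mean of the other A549-GFP libraries for 12 of the 42, where it was for 18.0% of all genes. IDUA was 4.74-fold, SMPD1 4.19-fold, ASAH1 3.18-fold and ARSA 3.04-fold above. The median excess of that library over the other A549-GFP libraries was 0.70 on the log2 scale for the 42 genes and 0.38 for all genes. After each library was rescaled by its median ratio these medians were 0.34 and 0.03, and after a correction for GC content they were 0.34 and 0.02. The rank was less stable, since that library held the highest value for 15 of the 42 genes after rescaling (31.4% of all genes) and for 15 after the GC correction (32.2% of all genes).

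A549-GFP replicates 1 and 3 were close to each other in these genes. Their median absolute difference was 0.13 on the log2 scale for the 42 genes and 0.29 for all genes, and 40 of the 42 agreed within 1.5-fold, as did 83.6% of all genes. The median standard deviation of log2 TPM over the 42 genes was 0.44 in A549-GFP and 0.19 in A549-TIPARP, against 0.39 and 0.19 over all genes. A549-TIPARP replicate 3 had a median excess over the other A549-TIPARP libraries of 0.23 on the log2 scale for the 42 genes and -0.05 for all genes. Across the 42 genes its excess over the other A549-TIPARP libraries went with that of A549-GFP replicate 2 (Spearman's rho 0.69), as it did across all analysed genes (rho 0.54). The genes share their libraries and are not independent, so these are descriptions. The excess of A549-GFP replicate 2 had a rho of 0.32 with transcript GC content across the 42 genes and of 0.02 across all genes. The part of GC content and of the leukocyte and epithelial marker values given above in this contrast was not tested.

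Without A549-GFP replicate 2, the comparison of the lines had another shape. The mean was higher in A549-TIPARP cells for 35 of the 42 genes, where it was for 56.9% of all genes, the median log2 fold change was 0.26, against 0.05 over all genes, and all A549-TIPARP libraries lay above both remaining A549-GFP libraries for 21 of the 42, where 21.2% of all genes did so. These were 4 proteases, 8 glycosidases, 2 sulfatases, 3 lipid genes, CD63, CLN3, TFEB and GRN. CTSL, CTSC and GLA lay below, where 6.42% of all genes did so. Before adjustment, 9 higher genes had a p-value under 0.05 (ARSA, CTSH, CTSZ, GRN, MAN2B1, NPC2, PSAP, SMPD1 and TFEB), against 9.30% of all genes, and 0 lower genes did, against 1.16%. No lysosomal gene had an adjusted p-value under 0.05 in that fit, in which 0.0228% of all genes had one. More than 1.5-fold higher were 7 of the 42 genes in that comparison, against 9.20% of all genes. Leaving out A549-TIPARP replicate 2 instead gave 6, against 7.09% of all genes.

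**Figure D4:**
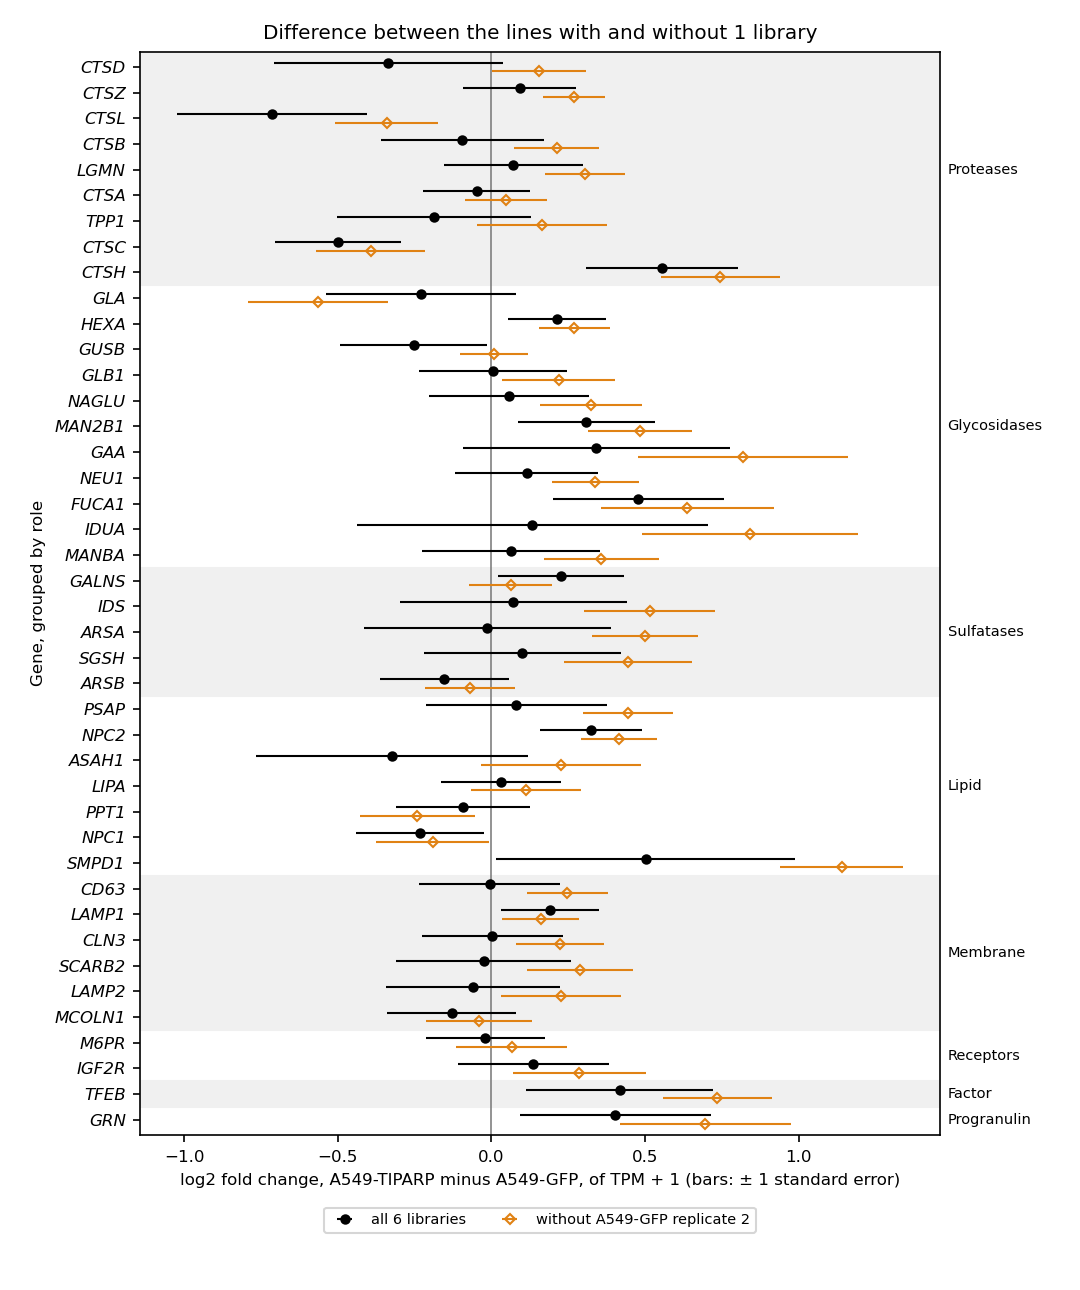
Log2 fold change of TPM + 1 (A549-TIPARP minus A549-GFP) for each of the 42 lysosomal genes, with bars of 1 standard error from limma. Black circles use all 6 libraries and orange diamonds leave out A549-GFP replicate 2; the diamonds lie to the right of 0 for 35 genes and the circles for 24.

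Among the 32 genes with a window, those with the E-box core did not have larger medians than those without it in either contrast. The 11 genes that held it had a median log2 fold change of 0.00 and an excess of A549-GFP replicate 2 of 0.29, and the 21 genes with a window and no core had 0.03 and 0.65. Over all analysed genes with a window the excess was 0.41 with the core and 0.38 without it. The 10 lysosomal genes without a window are in neither group. Their excess ran from 0.17 for HEXA to 1.67 for ASAH1, so the order of the medians could differ if their promoters were known.

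Other genes of the lysosomal system were taken from 6 lists. Their counts of higher genes with an unadjusted p-value under 0.05 by limma are to be read against 2.97% of all genes. Among 31 analysed genes for further lysosomal enzymes, 1 had such a p-value, PLA2G15, a phospholipase of the lysosome, and the median log2 fold change was 0.08. PLA2G15 had 6.61, 8.23 and 7.85 TPM in A549-GFP and 12.9, 10.8 and 12.3 TPM in A549-TIPARP, with no overlap (log2 fold change 0.60, standard error 0.21, 95% interval from 0.13 to 1.07, limma adjusted p = 0.985). Among 29 genes for mannose 6-phosphate tagging and transport to the lysosome the median was -0.03, and 1 gene had such a p-value, SORT1, which encodes the sorting receptor sortilin. SORT1 had 5.67, 6.52 and 3.74 TPM in A549-GFP and 12.1, 8.99 and 9.65 TPM in A549-TIPARP (log2 fold change 0.85, standard error 0.25, 95% interval from 0.28 to 1.42, limma adjusted p = 0.856). All 3 A549-TIPARP libraries lay above all 3 A549-GFP libraries for SORT1.

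Of 28 genes of the autophagy machinery, with a median of -0.04, 1 had such a p-value, MAP1LC3A, which encodes a protein of the autophagosome membrane. It had 2.70, 2.81 and 3.37 TPM in A549-GFP and 8.74, 6.49 and 17.2 TPM in A549-TIPARP (log2 fold change 1.48, standard error 0.33, 95% interval from 0.72 to 2.23, limma adjusted p = 0.490). Its low A549-GFP levels were close to each other, replicate 2 included. No gene had an unadjusted p-value under 0.05 by limma among 32 other lysosomal membrane proteins (median -0.04), 21 subunits of the V-ATPase, the pump that acidifies the lysosome (median -0.11), or 24 MiT/TFE factors and mTORC1 regulators at the lysosome (median -0.03). No gene of the 6 lists had an adjusted p-value under 0.05. When A549-GFP replicate 2 was left out, an unadjusted p-value under 0.05 was found for 6 higher genes among the other enzymes, 5 among the autophagy genes and 2 in each of the other 4 lists, against 9.30% of all genes, and the list medians were 0.32 for the other enzymes, 0.17 for autophagy, 0.15 for the other membrane proteins, 0.14 for the MiT/TFE and mTORC1 genes, 0.09 for the V-ATPase and 0.00 for tagging and transport, against 0.05 for all genes. The excess of A549-GFP replicate 2 was 0.67 for the autophagy genes, 0.66 for the other membrane proteins, 0.57 for the other enzymes, 0.51 for the MiT/TFE and mTORC1 genes, 0.35 for the V-ATPase and 0.21 for tagging and transport, beside 0.70 for the 42 genes and 0.38 for all genes.

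**Figure D5:**
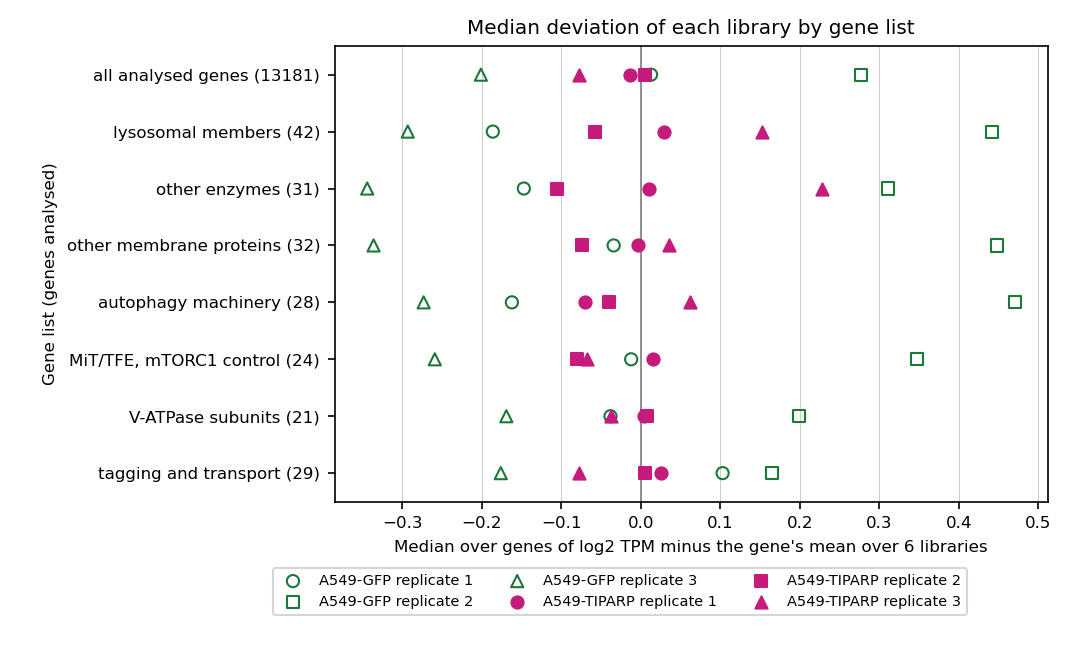
Median deviation of each library from the gene mean (log2 TPM units, horizontal axis) for the 42 lysosomal genes, the 6 further lists and all analysed genes, with the number of genes in brackets. Open green symbols are A549-GFP and filled magenta symbols A549-TIPARP; the open square of A549-GFP replicate 2 is rightmost in every row, at 0.44 for the 42 genes and 0.28 for all genes.

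Some of the values can hold reads of other genes. In GENCODE 44, 5 of the 42 genes share exon bases on the same strand with another entry of the tables (GLB1 with TMPPE, IGF2R with CHP1P2, MANBA with LRRC37A15P, MCOLN1 with PNPLA6 and NPC2 with MIR4709), and 15 share them with an entry of the tables on the opposite strand. GUSB has pseudogene entries of which GUSBP11 reached 9.52 TPM. The libraries were stranded by the protocol, and the treatment of strand and of reads that match several genes is not given in the sources used here.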

How the data were processed

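RNA from A549-TIPARP and A549-GFP cells, 3 libraries each, was sequenced in pairs of reads on an Illumina instrument after stranded mRNA library preparation. The authors aligned the reads to hg38 transcripts in Strand NGS with default settings and deposited log2 TPM per entry, 1 table per library. The software version and annotation release are not given in the sources used here. TPM below 1 had been set to 1, the floor. Lines and replicate numbers came from the sample titles.

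Genes above 2 TPM in at least 1 library were kept. Fold changes were taken between the means of the deposited log2 values. limma 3.58.1 (R 4.3.3) was fitted with a variance trend on log2(TPM + 1) of all 13181 genes, with Benjamini-Hochberg adjustment, and per-gene log2 fold changes, errors and intervals are on that scale, which differed from the deposited scale by at most 0.09 for the 42 genes. The GC correction removed from each library a lowess fit (span 0.3) on the GC content of the longest GENCODE 44 transcript, known for 98.3% of genes. Coordinates are GENCODE 44 on hg38. Medians over gene lists and counts past 1.5-fold are on the deposited log2 scale.

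The 42 genes and the lists were chosen with earlier results of these data known. Full statistics (log2 fold change, standard error, interval and adjusted p-value) were planned for genes with an unadjusted p-value under 0.05, the 6 with the largest log2 fold change, TFEB and both mannose 6-phosphate receptors, with library values also for the 5 most abundant. Genes beyond these were described after their values were seen, as was the motif search. The alternatives were pseudocounts of 0.1 or none, arithmetic means, a filter of 2 TPM in at least 3 libraries, no filter (on entries above the floor in at least 1 library), median-ratio rescaling, no trend, the replicate block, the GC correction with and without the block, another fold threshold of 2 and each library left out. No count test could be run on TPM.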

Additional observations from a re-analysis of the deposited data

How the results depend on the processing

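No lysosomal gene had an adjusted p-value under 0.05 in any of the 15 alternatives with a test, where the lowest was 0.225. The cause of the changes below was not tested. When each library was left out, the number with an unadjusted p-value under 0.05 ran from 0 to 9 higher (1.64% to 9.30% of all genes) and from 0 to 2 lower (0.281% to 5.60%), past 1.5-fold from 0 to 7 higher (6.05% to 9.20%) and from 0 to 3 lower (2.53% to 10.5%), and without overlap from 1 to 21 above (6.53% to 21.2%) and from 2 to 6 below (5.21% to 23.5%). The highest counts came without A549-GFP replicate 2 for higher genes and without A549-GFP replicate 3 for lower genes past 1.5-fold and without overlap, as did the highest shares of all genes, and leaving out A549-TIPARP replicate 2 gave 5 above (8.13%) and 4 below (7.97%). The median log2 fold change ran from -0.11 to 0.26 for the 42 genes, -0.077 to 0.32 for the other enzymes, -0.19 to 0.15 for the other membrane proteins, -0.16 to 0.090 for the V-ATPase, -0.14 to 0.043 for tagging and transport, -0.19 to 0.14 for the MiT/TFE and mTORC1 genes and -0.19 to 0.17 for autophagy. Higher and lower genes with an unadjusted p-value under 0.05 numbered 2 and 2 after rescaling (4.42% and 1.54% of all genes), 2 and 1 after the GC correction (4.31% and 1.85%), 1 and 0 with it and the replicate block (3.22% and 1.11%), and 1 and 1 without a trend (3.22% and 0.857%); there was 1 lower gene with the replicate block (0.895%) or without a filter (1.02%). Past 1.5-fold higher were 0 genes with arithmetic means (4.92%) and 2 after rescaling (7.07%), and past 2-fold 0 higher (1.53%) and 0 lower (0.432%). Not overlapping were 4 above and 1 below after rescaling (6.94% and 5.11%), and 3 above after the GC correction, with or without the block (7.09%). The highest value was in A549-GFP replicate 2 for 15 genes after rescaling and after the GC correction, alternatives chosen after seeing the data, with a median excess of 0.34 in both.

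Of the 42 genes, 17 kept the sign of their log2 fold change in all 15 fits and 25 did not in at least 1. It was 0.017 for CTSA, 0.053 for ARSA, 0.005 for LAMP2, 0.061 for CD63, 0.041 for SCARB2 and 0.047 for M6PR after rescaling, and -0.003 for NAGLU, 0.095 for LAMP2, 0.020 for CD63, 0.091 for SCARB2 and 0.065 for M6PR after the GC correction, with or without the replicate block. With each library left out it spanned 0 for ARSA from -0.28 to 0.50, ASAH1 from -0.72 to 0.23, CD63 from -0.13 to 0.25, CLN3 from -0.11 to 0.22, CTSA from -0.13 to 0.048, CTSB from -0.27 to 0.21, CTSD from -0.58 to 0.15, CTSZ from -0.009 to 0.27, GLB1 from -0.18 to 0.22, GUSB from -0.39 to 0.009, IDS from -0.31 to 0.52, IDUA from -0.23 to 0.84, IGF2R from -0.096 to 0.29, LAMP2 from -0.33 to 0.23, LGMN from -0.060 to 0.30, LIPA from -0.14 to 0.12, M6PR from -0.17 to 0.087, MANBA from -0.14 to 0.36, NAGLU from -0.11 to 0.32, NEU1 from -0.049 to 0.34, PPT1 from -0.24 to 0.058, PSAP from -0.12 to 0.45, SCARB2 from -0.28 to 0.29, SGSH from -0.15 to 0.45, TPP1 from -0.40 to 0.17. It kept its sign for ARSB from -0.23 to -0.069, CTSC from -0.67 to -0.39, CTSH from 0.44 to 0.75, CTSL from -0.90 to -0.34, FUCA1 from 0.23 to 0.69, GAA from 0.029 to 0.82, GALNS from 0.064 to 0.33, GLA from -0.56 to -0.013, GRN from 0.15 to 0.70, HEXA from 0.16 to 0.27, LAMP1 from 0.14 to 0.27, MAN2B1 from 0.17 to 0.48, MCOLN1 from -0.21 to -0.017, NPC1 from -0.34 to -0.17, NPC2 from 0.25 to 0.42, SMPD1 from 0.13 to 1.14, TFEB from 0.23 to 0.74.

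The deviations of same-numbered libraries had r = 0.45, -0.52 and -0.38 for experiments 1, 2 and 3, so not every same-numbered pair deviated together. Differently numbered libraries had r from -0.65 (A549-GFP replicate 1 with A549-TIPARP replicate 3) to 0.62 (A549-GFP replicate 2 with A549-TIPARP replicate 3). Deviations are from the mean of each line and are not independent, so these values cannot show pairing. Whether the experiments were paired is not stated. TIPARP kept its direction, with an adjusted p-value of 0.513 with the replicate block and 0.616 with it and the GC correction. TPM keeps no depth, so no counting error could be given.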
